A study of Arabidopsis thaliana with 36 samples.

Results

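Seedlings of the Arabidopsis thaliana mutant gin2 were compared with seedlings of their wild type, Ler, in the absence of glucose. The gin2 mutant carries a defect in HEXOKINASE1 (HXK1), and its allele is not named in the labels. The comparison rests on 6 of the 36 RNA libraries of the series, 3 of gin2 and 3 of Ler-0 wild type (called Ler here), chosen by their labels and not by any measured value. All 6 came from whole seedlings aged 4 days that had grown in glucose-free liquid medium. They were collected as the untreated controls of a 2 h glucose treatment, so both genotypes were short of sugar when sampled. A further 6 libraries, 3 of each genotype, received 15 mM glucose for 2 h and serve here to show where the difference between the genotypes changed with sugar. The design text calls the libraries of a group biological replicates. No other allele of HXK1 and no mutant line restored with the gene is among the libraries.

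Hexokinases phosphorylate glucose and so open the way to glycolysis. In Arabidopsis HXK1 has an additional role: as a sensor of glucose it takes part in signalling that represses photosynthesis genes and alters seedling growth, and forms without catalytic activity still signal. The gin2 (glucose insensitive) mutants were found as seedlings that kept growing on glucose levels that arrest the wild type. Without added sugar, a seedling draws on seed reserves and on its own photosynthesis, and genes of sugar starvation are switched on.

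Levels are given in scaled RPM, which are the deposited RPM values (reads per 1e+06 reads) divided by a factor for each library that brings the typical gene to the same level in all libraries. Log2 differences are gin2 minus Ler on log2(scaled RPM + 1), with their standard error (SE) from a limma fit, and understate the change of genes at low level. A gene is said to rise, fall or be called where its limma p, two-sided and adjusted over 17352 genes (Benjamini-Hochberg), was below 0.05. Values of 3 libraries are given in the order of replicates 1, 2 and 3.

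The sugar status matched the labels. The summed level of 30 sugar starvation genes was 10215 to 11949 in the 3 Ler libraries without glucose and 10815 to 11142 in those of gin2, against 638 to 725 in Ler and 1581 to 1792 in gin2 with glucose. The libraries held 5637934 to 13596490 reads on tested genes. Library size and composition were not even between the genotypes. Genes outside the 17352 tested took 26.9%, 32.6% and 54.3% of the RPM of Ler libraries 1, 2 and 3. In gin2 they took 18%, 15.8% and 13.2%. The gin2 shares include 1033 genes that the table lists for gin2 and not for Ler.

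Markers of other material moved with genotype and differed among the Ler libraries. Transcripts of 8 seed reserve genes, which belong to ripening and dry seeds, summed to 29.8, 267 and 922 in Ler and to 17.97, 14.2 and 2.47 in gin2. All 8 were detected in each of the 6 libraries apart from GEA6, which was at 0 in gin2 library 3. A nuclear copy of the 18S ribosomal RNA gene, AT3G41768, stood at 5097, 9581 and 22827 in Ler and at 3002, 2289 and 762 in gin2 (-2.58 ± 0.56 on the log2 scale, not called against Ler library 1 alone). The 21 tested nuclear genes whose sequence lies in the mitochondrial genome of the reference assembly summed to 839, 967 and 2078 in Ler and to 156, 171 and 87.5 in gin2. In all of these sums every Ler library lay above every gin2 library, and Ler library 3 was the highest. Ler library 1 lay nearest to gin2, so the results without glucose were also computed with Ler libraries 2 and 3 left out, that is, against Ler library 1 alone. Sums over 7 genes of the stomatal lineage overlapped between the genotypes, at 82.3 to 96.2 in Ler and 86.0 to 94.1 in gin2. In RNA from whole seedlings, fewer cells of a type and less RNA per cell cannot be told apart. The part of seed, ribosomal or mitochondrial RNA in the results was not tested.

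**Figure D1:**
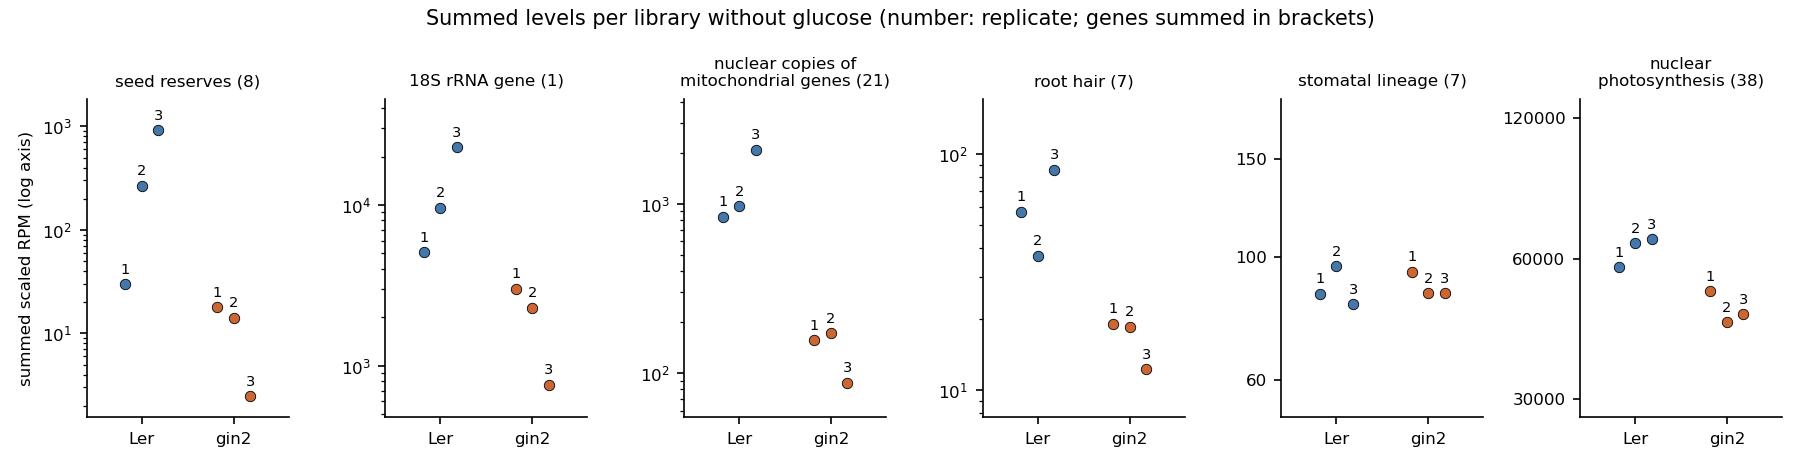
Summed scaled RPM (log axis) in each library without glucose for 6 sets of genes, with Ler in blue, gin2 in orange and the replicate number over each point. Seed reserve, 18S rRNA and mitochondrial-copy sums are highest in Ler library 3 and lowest in gin2 library 3, whereas stomatal lineage sums overlap between 82.3 and 96.2.

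The mutated gene was lower in the mutant. HXK1 (AT4G29130) stood at 42.4, 48.0 and 37.4 in Ler and at 12.4, 13.0 and 11.0 in gin2, means of 42.6 ± 5.30 and 12.1 ± 1.04 (SD, n = 3). The groups were far apart, with no Ler library near any gin2 library. The log2 difference was -1.73 ± 0.12 without glucose (adjusted p = 6.65e-07), and in the libraries given glucose it was -2.05 ± 0.12. HXK1 mRNA was thus reduced in the labelled mutant and still present.

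No other tested member of the family was called with all libraries in the fit. HXK2, another catalytic hexokinase, stood at 23.6, 24.5 and 26.6 in Ler and 26.5, 24.4 and 25.03 in gin2, with a log2 difference of 0.02 ± 0.09 (adjusted p = 0.865). HXK3, the hexokinase of plastids, stood at 7.70, 12.2 and 11.5 in Ler and 12.6, 13.3 and 13.7 in gin2, every gin2 library above every Ler library. Its log2 difference of 0.33 ± 0.14 was not called (adjusted p = 0.0782), although it was without Ler library 2 (0.44, adjusted p = 0.0413) and against Ler library 1 alone (0.71, adjusted p = 0.00708). The hexokinase-like proteins HKL1 and ATHXK4, which lack catalytic activity, overlapped between the genotypes. HKL1 stood at 17.1, 17.96 and 14.3 in Ler and 15.8, 12.4 and 13.9 in gin2, and ATHXK4 at 4.25, 5.14 and 3.97 in Ler and 4.65, 5.497 and 6.16 in gin2. The log2 differences were -0.21 ± 0.13 for HKL1 and 0.24 ± 0.14 for ATHXK4, neither called. Of 6 family members listed 5 were tested, and HXK1 alone was called, against 32.3% of all genes. The fructokinases, which phosphorylate fructose, had 3 tested genes and none called. None of the 2 genes for proteins known to partner HXK1 in the nucleus was called.

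**Figure D2:**
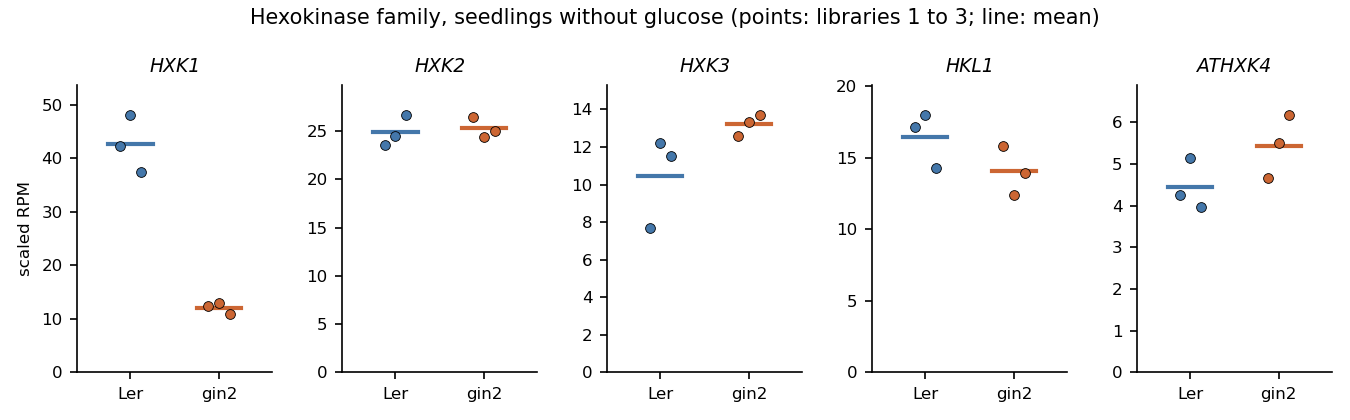
Scaled RPM of 5 hexokinase family genes in each library without glucose, Ler in blue and gin2 in orange, with a line at each mean and the axis from 0. HXK1 falls from about 42.6 to 12.1, while the other 4 genes differ by at most 0.33 on the log2 scale.

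Genes next to HXK1 in code order were examined separately. Among the 10 tested genes on each side, 2 rose and 7 fell in gin2, 9 of 20 against 32.3% of all genes. ADS1 (AT4G29140), which adjoins HXK1 in code order and encodes a transporter of the MATE family, stood at 27.2, 45.5 and 46.1 in Ler and at 19.4, 14.1 and 13.8 in gin2 (log2 difference -1.25 ± 0.19). AT4G29030 stood at 5.97, 7.67 and 7.35 in Ler and at 2.54, 2.82 and 2.59 in gin2 (log2 difference -1.13 ± 0.17). Both genes were lower in every gin2 library than in every Ler library.

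Across the transcriptome the genotypes differed at many genes. Of 17352 genes, 5603 were called, or 32.3%, with 2585 higher in gin2 (14.9%) and 3018 lower (17.4%). Most differences were modest: 129 of the rises and 373 of the falls reached 2-fold. In 7152 genes, 41.2%, the 3 libraries of gin2 lay wholly above those of Ler (20.3%) or wholly below them (20.9%), and 5216 of these were also called. With the genes divided by level into 5 classes, 29.2% fell and 15.4% rose in the most abundant class, and 10% fell and 6.4% rose in the least abundant.

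These counts depend on the scaling and on single libraries. On RPM as deposited the tested genes make up a smaller share of the Ler libraries. There the median gene lay 0.55 higher in gin2 on the log2 scale, and 8653 genes rose against 288 that fell. Rises and falls here are therefore relative to the typical gene. On RPM as deposited the median was above 0 in 30 of the 34 gene lists, the exceptions being seed reserves, root hair, heat shock and flavonoid genes. On that scale the falls of SUC2, SWEET2, FER3, EXPA5, PCNA1, TSO2, RNR2A, EBF1, TT4, ESP and FIB2, all described below, were not called. Leaving out Ler library 2 or gin2 library 3 lowered the count of called genes from 5603 to 3652 or 3701, and leaving out both Ler libraries 2 and 3 lowered it to 1884. Of 63 genes named here or in the closing observations and called without glucose, 43 were also called against Ler library 1 alone.

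The steepest rises, taken only from called genes without overlap between the libraries, came from genes of diverse annotation. AT1G73120, annotated as an F-box protein, stood at 65.2, 50.3 and 53.8 in Ler and 264, 247 and 286 in gin2, a log2 difference of 2.22 ± 0.14 (adjusted p = 6.29e-07). TPD1, a small secreted protein known from anther development, rose from 6.64, 5.60 and 4.97 to 24.7, 24.5 and 29.7 (2.02 ± 0.16, adjusted p = 2.09e-06). OSM34, an osmotin-like protein of stress responses, rose from 4.64, 4.53 and 5.96 to 26.8, 25.8 and 17.6 (2.00 ± 0.17, adjusted p = 4.31e-06). In all 3 genes the lowest gin2 library was well above the highest Ler library. BGLU11, a beta-glucosidase, stood at 22.8, 34.5 and 21.5 in Ler and 86.5, 109 and 117 in gin2 (1.97 ± 0.19). AAO3, the aldehyde oxidase that makes abscisic acid in its last step, stood at 38.1, 36.2 and 28.4 in Ler and 103, 110.1 and 99.7 in gin2 (1.59 ± 0.11). These 2 genes also showed no overlap. Among abundant transcripts, the photorespiratory enzyme SHM1 was at 1659, 1267 and 1258 in Ler and 1993, 2232 and 2465 in gin2 (0.68 ± 0.16), a rise not called against Ler library 1 alone. CAT2, the catalase that removes photorespiratory peroxide, was at 1076, 1094 and 1097 in Ler and 1583, 1606 and 1566 in gin2 (0.54 ± 0.11), the groups well apart.

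AT5G27345, a gene of unknown role, was among the steepest falls, taken likewise only from called genes without overlap. It stood at 26.9, 21.2 and 21.1 in Ler and at 1.32, 1.07 and 1.48 in gin2, with a log2 difference of -3.39 ± 0.14 (adjusted p = 8.19e-09). AT5G46730, a glycine-rich protein, fell from 199, 196 and 220.4 to 34.3, 23.8 and 16.6, a log2 difference of -3.05 ± 0.18 (adjusted p = 2.74e-07). Both were several times lower in each gin2 library than in any Ler library.

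**Figure D3:**
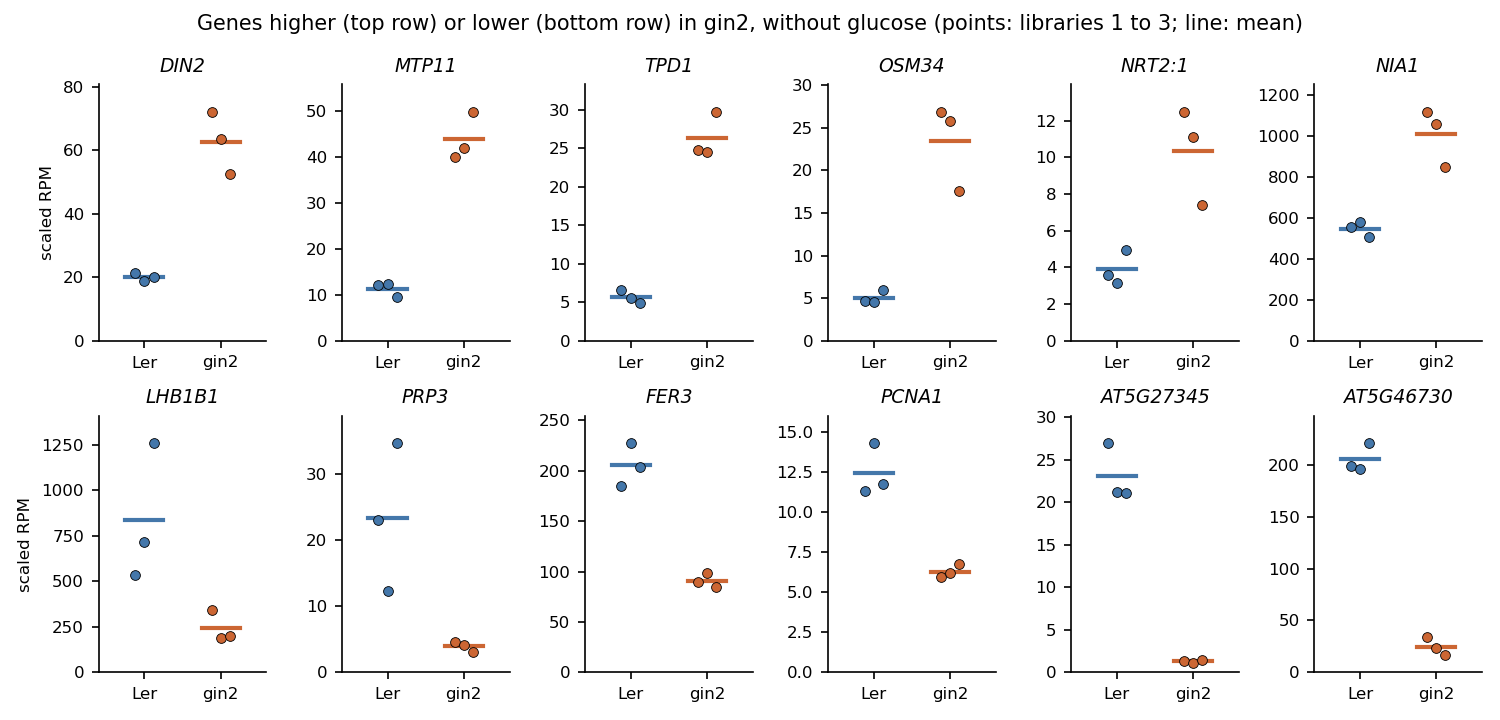
Scaled RPM of 12 genes in each library without glucose, Ler in blue and gin2 in orange, with a line at each mean and each axis from 0. The top row holds genes higher in gin2, such as DIN2 and MTP11, and the bottom row genes lower in gin2, such as PRP3 and AT5G27345, and the groups do not overlap in any of them.

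Genes of sugar starvation were called at about the rate of all genes. This list holds genes that are switched on when sugar runs out, by energy signalling through SnRK1 kinases among other routes. Of 30 tested, 7 rose and 3 fell in gin2. That is 33.3% called, close to the 32.3% of all genes, and the list's median log2 difference was 0.04, against 0.004 for all genes. DIN2, a beta-glucosidase induced by darkness, rose the most, from 21.3, 18.7 and 20.1 in Ler to 72.0, 63.6 and 52.5 in gin2 (1.59 ± 0.24, adjusted p = 0.000358). GDH1 and GDH2, the subunits of glutamate dehydrogenase, which feeds amino acid carbon into respiration, rose together. GDH1 went from 65.2, 58.6 and 55.1 to 102, 106 and 119.7 (0.86 ± 0.11) and GDH2 from 494, 386 and 355 to 695, 769 and 753 (0.86 ± 0.13), without overlap in either. XYL4, a beta-xylosidase of the wall, stood at 108, 109 and 112 in Ler and 194, 166 and 168 in gin2 (0.67 ± 0.12). The asparagine synthetase ASN1, by contrast, had a log2 difference of -0.60, and the dormancy-linked DYL1 of -0.44, both called lower. None of the 4 class II trehalose phosphate synthase genes, which are common readouts of sugar status, was called, with log2 differences from -0.23 to 0.05. None of the 3 falls was called without Ler library 2 or without gin2 library 3, which left 5 rises in each case. With Ler libraries 2 and 3 left out 4 genes rose and none fell, and on RPM as deposited 21 rose and none fell.

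Sugar transport genes, where called, were lower in gin2. Of 14 tested 7 fell and none rose, against 17.4% of all genes that fell, with a median of -0.31, which turned to 0.30 on RPM as deposited, below that scale's median gene. SWEET2, a sugar carrier of the vacuole membrane, stood at 84.3, 85.3 and 61.8 in Ler and at 42.4, 45.9 and 40.1 in gin2 (-0.82 ± 0.13, adjusted p = 0.000438). SAG29, a sucrose exporter tied to senescence, stood at 5.84, 7.83 and 6.36 in Ler and 2.75, 3.49 and 1.11 in gin2 (-1.22 ± 0.27). SUC2, which loads sucrose into the phloem, stood at 63.8, 106 and 106 in Ler and 61.3, 46.8 and 39.5 in gin2 (-0.87 ± 0.18). The groups were apart in all 3, but for SUC2 only narrowly, since Ler library 1 lay close to gin2 library 1. Against Ler library 1 alone SAG29 and SUC2 were not called (adjusted p = 0.0949 and 0.193), and 2 of the 14 genes were.

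Starch genes included rises and falls, where 14.9% of all genes rose and 17.4% fell. Of 13 genes of starch synthesis 3 rose and 2 fell (median -0.29), and of 12 genes of starch breakdown 4 rose and 2 fell (median 0.21). Against Ler library 1 alone 2 of the breakdown genes rose, and without Ler library 1 or gin2 library 1 4 of the synthesis genes fell. SS4, the synthase that helps to start starch granules, stood at 123, 87.02 and 109 in Ler and 158, 168 and 188 in gin2 (0.69 ± 0.12, adjusted p = 0.000755). CT-BMY, a beta-amylase of chloroplasts that releases maltose, stood at 39.1, 32.0 and 47.7 in Ler and 66.1, 64.8 and 71.9 in gin2 (0.77 ± 0.13), and PHS2, a glucan phosphorylase of the cytosol, at 92.2, 85.7 and 72.2 in Ler and 125, 134 and 121 in gin2 (0.60 ± 0.11). All 3 were higher in every gin2 library. BMY3, another member of the beta-amylase family, went the other way at 133, 129 and 99.8 in Ler and 78.9, 78.6 and 76.3 in gin2 (-0.61 ± 0.12), a difference of 0.01 on RPM as deposited. Among 8 genes that cleave sucrose 1 rose and 1 fell. The one that rose, the cell wall invertase ATBFRUCT1, stood at 102, 83.4 and 76.8 in Ler and 137, 137 and 123 in gin2 (0.60 ± 0.12), and was not called against Ler library 1 alone.

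Of 13 tested nitrogen genes 3 rose and 1 fell (median 0.17), 30.8% called against 32.3% of all genes. The 3 rises were genes of nitrate uptake and reduction. NRT2:1, the high-affinity nitrate transporter of roots, rose from 3.58, 3.15 and 4.97 to 12.5, 11.1 and 7.40 (1.20 ± 0.17, adjusted p = 0.000232). The nitrate reductases NIA1 and NIA2 rose from 557, 581 and 507 to 1119, 1061 and 851 (0.87 ± 0.17, adjusted p = 0.00198) and from 789, 859.8 and 780.2 to 1443, 1246 and 1056 (0.61 ± 0.14, adjusted p = 0.00481). Every gin2 library lay above every Ler library in all 3 genes, and NIA2 alone lost its call against Ler library 1 (adjusted p = 0.0501). Among 8 iron genes 1 rose and 3 fell. FER3, a ferritin that stores iron in plastids, was lower in every gin2 library, at 185, 227 and 204 in Ler and 89.7, 98.4 and 84.9 in gin2 (-1.16 ± 0.09, adjusted p = 3.29e-06).

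Nuclear photosynthesis genes fell mainly in the light-harvesting antenna. Of 38 tested, 19 fell, against 17.4% of all genes, and 2 rose, with a median of -0.45. On RPM as deposited 4 fell and 8 rose and the median was 0.18, still below that scale's median gene. The 17 antenna genes, whose proteins bind chlorophyll and pass light energy to the photosystems, held 15 of the falls and no rise, with log2 differences from -1.72 to -0.26 and a median of -1.03. Among the other 21 genes 4 fell and 2 rose (median -0.21), and the rises were CP12-2 (0.50) and PRK (0.45), both of the Calvin cycle. Neither rise was called without Ler library 2, without gin2 library 3 or against Ler library 1 alone. LHB1B1 stood at 533, 718 and 1258 in Ler and at 345, 191 and 201 in gin2 (-1.72 ± 0.31, adjusted p = 0.000943). LHCB2.2 stood at 48.0, 67.3 and 65.7 in Ler and 23.8, 19.0 and 19.6 in gin2 (-1.48 ± 0.15, adjusted p = 2.27e-05), and CAB3 at 782, 936 and 1363 in Ler and 521, 347 and 324 in gin2 (-1.36 ± 0.23). All Ler libraries were above all gin2 libraries in each, and in LHB1B1 and CAB3 the spread within Ler was wide with library 3 highest. These antenna genes have near-identical copies, so the share of reads given to each is uncertain. Without Ler library 2 the list had 12 falls, and against Ler library 1 alone 10.

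**Figure D4:**
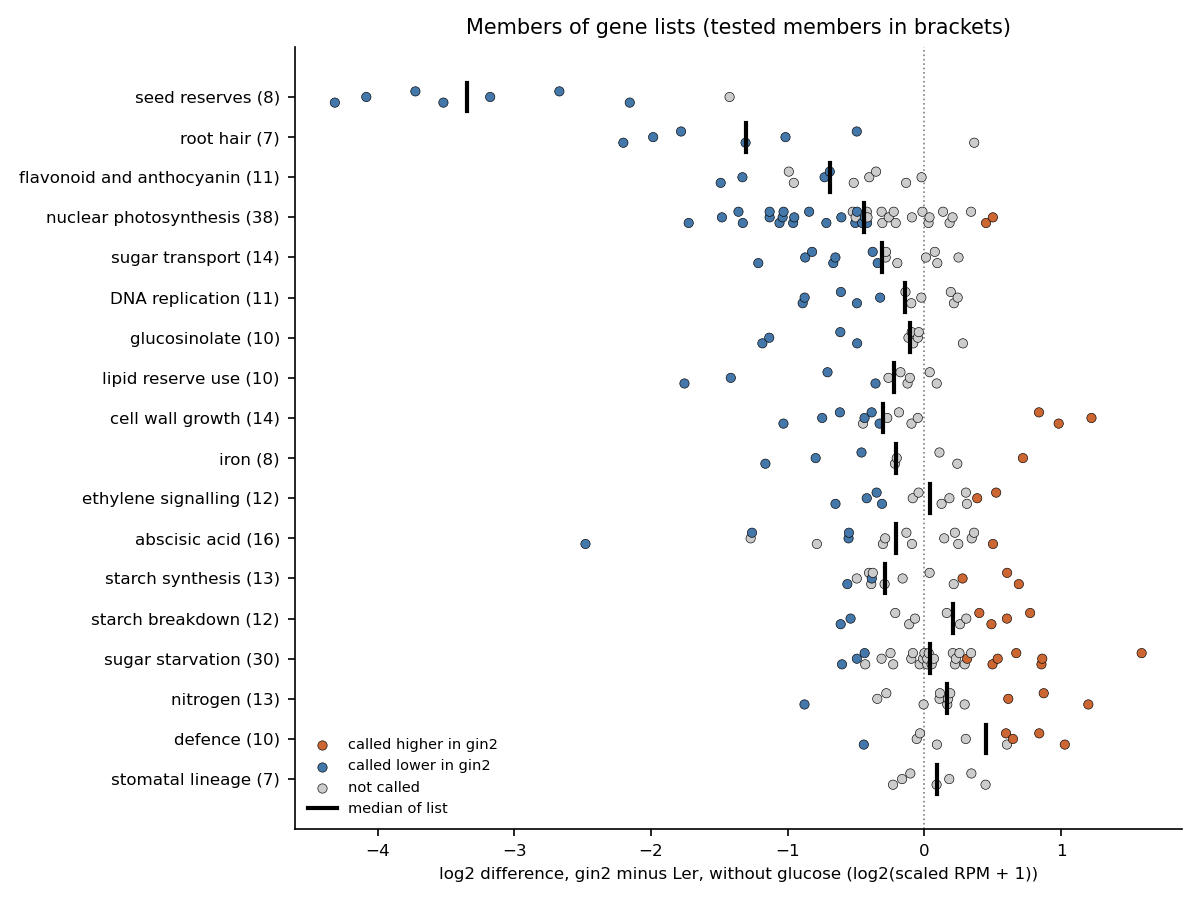
Log2 differences, gin2 minus Ler without glucose, of the tested members of 18 gene lists (points; orange called higher, blue called lower, grey not called), with a bar at each list's median. Seed reserve and root hair genes lie furthest to the left, at medians of -3.35 and -1.31, and on RPM as deposited the median gene lies 0.55 higher, which turns the photosynthesis and sugar transport medians above 0.

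Root hair genes were low in gin2. Root hairs are tip-growing outgrowths of the root epidermis, built with their own wall proteins and expansins. Of 7 tested 6 fell (85.7%, against 17.4% of all genes) and none rose, with a median of -1.31. PRP3, a proline-rich wall protein of root hairs, stood at 23.1, 12.4 and 34.7 in Ler and at 4.60, 4.16 and 3.08 in gin2 (-2.20 ± 0.28, adjusted p = 0.00011). LRX1, a leucine-rich extensin needed for hair shape, stood at 7.10, 6.52 and 16.9 in Ler and 2.22, 2.15 and 0.740 in gin2 (-1.98 ± 0.32), and EXPA18, an expansin of root hairs, at 6.97, 4.30 and 12.1 in Ler and 1.85, 1.27 and 1.11 in gin2 (-1.78 ± 0.25). No library of one genotype reached the other in these 3. RSL4, the transcription factor that drives hair growth, had a log2 difference of 0.36 and was not called. Of the 7 genes 5 fell against Ler library 1 alone, and on RPM as deposited 4 fell and 1 rose. Of 6 root meristem and stele genes 2 fell, and none was called without Ler library 2 or without gin2 library 3.

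Other wall genes and the aquaporins fell as families, and the xyloglucan enzymes were split. The families here were put together from annotation names after values had been seen. Of all genes tested, 14.9% rose and 17.4% fell. Of 40 genes named for extensin 26 fell and 1 rose (median -1.04), of 34 for arabinogalactan proteins 25 fell (median -0.93), and of 24 for aquaporins, the water channels, 19 fell (median -0.73). Against Ler library 1 alone the falls were 20, 12 and 9, and on RPM as deposited 18, 11 and 3. Xyloglucan endotransglucosylases, which cut and rejoin wall polymers, had 13 falls and 3 rises among 22 (median -0.67). XTH24 was among the rises at 583, 457 and 344 in Ler and 799, 792 and 831 in gin2 (0.84 ± 0.17). XTH18 stood at 5.57, 3.30 and 3.38 in Ler and 7.56, 8.98 and 17.4 in gin2 (1.22 ± 0.25). Both lost their call against Ler library 1 alone, though neither overlapped. EXPA5, an expansin of growing shoots, stood at 6.57, 5.53 and 5.36 in Ler and 1.80, 2.55 and 2.71 in gin2 (-1.03 ± 0.14, adjusted p = 0.000152), wholly lower in gin2. The list of cell wall growth genes held 3 rises and 6 falls in 14, with 3 falls and no rise against Ler library 1 alone and no fall on RPM as deposited.

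Genes of DNA synthesis were lower where called. Of 11 replication genes 5 fell and none rose (median -0.14), beside 17.4% of all genes that fell and 14.9% that rose. Against Ler library 1 alone 3 fell, and on RPM as deposited none fell and 4 rose. PCNA1, the sliding clamp of DNA polymerase, stood at 11.3, 14.3 and 11.7 in Ler and 5.92, 6.17 and 6.78 in gin2 (-0.88 ± 0.11, adjusted p = 7.23e-05). TSO2, a small subunit of ribonucleotide reductase, stood at 51.2, 61.2 and 44.4 in Ler and 29.8, 28.6 and 24.4 in gin2 (-0.89 ± 0.14), and RNR2A, another small subunit, at 10.2, 10.6 and 12.9 in Ler and 6.24, 7.24 and 7.52 in gin2 (-0.61 ± 0.12). The genotypes did not overlap in any of these, and RNR2A was not called against Ler library 1 alone. Of 12 mitosis genes 1 fell. Of 14 ribosome biogenesis genes 1 rose and 3 fell (28.6% called, below the 32.3% of all genes), among them the fibrillarin gene FIB2 at 30.6, 44.1 and 45.5 in Ler and 24.0, 21.7 and 22.3 in gin2 (-0.77 ± 0.13). The falls among ribosome biogenesis genes dropped to 1 without Ler library 3, gin2 library 2 or gin2 library 3, and without Ler library 3 4 rose. Of 309 genes named for ribosomal proteins 142 fell (46%) and 7 rose (2.27%), with a median of -0.31 that became 0.29 on RPM as deposited, and 69 fell against Ler library 1 alone.

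Defence genes included 4 rises and 1 fall among 10 tested, against 14.9% and 17.4% of all genes, with a median of 0.45. Without Ler library 2 or gin2 library 2 the rises were 2, and against Ler library 1 alone 1. The median was 0.28 without Ler library 2 and 0.01 against Ler library 1 alone. GSTU24, a glutathione transferase of detoxification, stood at 9.16, 11.7 and 7.95 in Ler and 21.5, 18.4 and 21.3 in gin2 (1.03 ± 0.17, adjusted p = 0.000612). EDS1, a regulator of immunity through TIR-type receptors, stood at 4.51, 2.15 and 2.98 in Ler and 5.81, 5.36 and 8.14 in gin2 (0.84 ± 0.20), a rise not called against Ler library 1 alone. The groups did not overlap in either gene. Among annotation families, again chosen after values were seen, 31 of 71 NBS-LRR resistance genes, 13 of 40 WRKY factors, 10 of 17 cysteine-rich receptor-like kinases and 11 of 34 NAC factors rose, with 0, 0, 0 and 2 falls. The medians were 0.34, 0.36, 0.41 and 0.26. Without Ler library 2 the NBS-LRR and NAC rises numbered 17 and 6. The NBS-LRR rises numbered 18, 19 and 17 without Ler library 3, gin2 library 2 and gin2 library 3. Against Ler library 1 alone the rises in the 4 families were 2, 6, 6 and 3. Among 9 genes known to differ between Ler and Col-0 in sequence or level 3 rose and 1 fell, with 1 rise and no fall against Ler library 1 alone. FLC, the repressor of flowering, which is weak in Ler, stood at 1.92, 1.61 and 2.88 in Ler and 7.13, 6.23 and 7.40 in gin2 (1.35 ± 0.17, adjusted p = 9.9e-05), a clear gap at a low level.

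Hormone lists held rises and falls, where 14.9% of all genes rose and 17.4% fell. Of 12 ethylene signalling genes 2 rose and 4 fell (median 0.04). Without Ler library 2, without gin2 library 3 or against Ler library 1 alone 1 fell, and on RPM as deposited 8 rose and none fell. EIN3, the transcription factor at the end of the ethylene pathway, stood at 98.3, 88.5 and 84.3 in Ler and 138, 125 and 128 in gin2 (0.52 ± 0.10, adjusted p = 0.00183). EBF1, the F-box protein that sends EIN3 to degradation, stood at 140.4, 145 and 144 in Ler and 91.2, 98.9 and 83.2 in gin2 (-0.65 ± 0.09, adjusted p = 0.00023). The genotypes did not overlap in either gene, and EIN3 was not called against Ler library 1 alone (adjusted p = 0.0739). Of 16 abscisic acid genes 1 rose and 4 fell, 31.2% called against 32.3% of all genes. None was called against Ler library 1 alone, and the falls dropped to 1 or 2 on leaving out either of Ler libraries 2 and 3 or of gin2 libraries 2 and 3. RAB18, a dehydrin of drying tissue, spanned 5.24, 65.7 and 161 in Ler and 14.4, 4.36 and 3.70 in gin2. Ler library 1 lay inside the range of gin2, and the log2 difference of -2.48 ± 0.84 (adjusted p = 0.0351) became 0.22 with Ler libraries 2 and 3 left out. It was not called without Ler library 2 (-2.12), Ler library 3 (-1.49), gin2 library 2 (-2.26) or gin2 library 3 (-2.16), and was -3.83 without Ler library 1. KIN2, a cold and drought protein, stood at 9.49, 10.7 and 25.7 in Ler and 3.44, 4.83 and 8.26 in gin2 (-1.26 ± 0.33), and was not called against Ler library 1 alone. Auxin response genes had 2 rises and 1 fall in 10, and cytokinin response genes 1 fall in 8.

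Of 11 flavonoid and anthocyanin genes 4 fell, none rose and 7 were not called (median -0.69), with 17.4% of all genes falling. The falls numbered 7 without Ler library 2 and 2 on RPM as deposited, where the median was -0.13. UF3GT, which adds sugar to anthocyanins, stood at 5.71, 2.84 and 4.47 in Ler and 0.898, 1.07 and 0.616 in gin2 (-1.49 ± 0.29). GSTF12, which carries anthocyanins to the vacuole, stood at 7.96, 4.07 and 7.95 in Ler and 2.11, 1.88 and 1.85 in gin2 (-1.33 ± 0.26), and the first enzyme TT4 at 138, 119.9 and 203 in Ler and 100.7, 74.2 and 105 in gin2 (-0.69 ± 0.17). These were apart in all libraries, and TT4 alone was not called against Ler library 1 (adjusted p = 0.0567). Glucosinolate genes had 4 falls in 10, of which ESP, a protein that steers glucosinolate breakdown, stood at 42.5, 54.9 and 30.99 in Ler and 20.8, 17.4 and 17.4 in gin2 (-1.13 ± 0.17, adjusted p = 0.000356). Of these 10 genes 1 fell against Ler library 1 alone.

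Seed reserve genes and copies of mitochondrial genes had the lowest medians of the sets described. For the counts that follow, 17.4% of all genes fell and 32.3% were called. Of 8 seed reserve genes 7 fell (median -3.35), and none was called against Ler library 1 alone, where the median was -0.97. SESA3, a 2S albumin, stood at 8.82, 66.3 and 204 in Ler and 4.07, 1.74 and 0.247 in gin2 (-4.31 ± 0.82), and CRU3, a cruciferin, at 8.82, 91.4 and 309 in Ler and 4.02, 5.63 and 0.740 in gin2 (-4.08 ± 0.96). The groups did not overlap, and the Ler libraries were themselves far apart. Among 10 genes that turn stored lipid into sugar 4 fell, with MLS, the malate synthase of the glyoxylate cycle, at 103, 170.0 and 245 in Ler and 74.3, 47.7 and 30.0 in gin2 (-1.75 ± 0.35), and none of the 10 was called against Ler library 1 alone. All 21 nuclear copies of mitochondrial genes fell (median -2.33), and 16 of them against Ler library 1 alone (median -1.96). AT2G07698 stood at 190.2, 251 and 406 in Ler and 22.1, 21.7 and 7.89 in gin2 (-4.01 ± 0.38), every Ler library far above gin2. Reads from the mitochondrial genome and from these copies cannot be told apart in the table.

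Other lists held from 0 to 4 calls each, at shares from 0 to 40%, where 32.3% of all genes were called. Heat shock genes had 1 fall in 7, phosphate starvation genes 1 fall in 6, circadian clock genes 1 rise in 10 and stomatal lineage genes no call in 7. Hypoxia genes had 1 rise and 3 falls in 12 (6 falls without gin2 library 1), autophagy genes 1 and 3 in 10 (5 falls without Ler library 3), and genes of glycolysis and respiration 2 and 2 in 12. The hypoxia and glycolysis lists, at 33.3% called, lay at the share of all genes. Against Ler library 1 alone 3 autophagy genes fell and no gene of the other lists named here was called.

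The same genotype comparison in the libraries given glucose, which shares no library with the first, called 5887 genes, or 33.9%. Of these, 3652 were called in the same direction without glucose, and 72 were called in opposite directions. The 3652 are 65.2% of the genes called without glucose and 62.0% of those called with it. The marks of other material also differed between the genotypes with glucose. Seed reserve sums were 554, 313 and 1015 in Ler and 44.9, 12.8 and 11.3 in gin2. Sums of mitochondrial copies were 952, 494 and 1474 in Ler and 71.1, 117 and 95.1 in gin2. Their part in the shared calls was not tested. The difference of the genotype effect between the sugar states, tested as an interaction in the same fit, was called for 336 genes, or 1.94%, of which 256 were lower without glucose (1.48%) and 80 higher (0.461%).

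In the sugar starvation list the interaction was called for 16 of 30 genes, against 1.94% of all genes. With glucose 23 of its 30 genes were higher in gin2 and 1 lower, with a median of 0.86, against 7 and 3 and a median of 0.04 without. In each of the 16 genes gin2 stood less above Ler, or further below it, without glucose. Of the 30 genes 7 rose in both sugar states, 14 rose with glucose and were not called without, and 2 fell without glucose and rose with it. AT3G15450, an abundant starvation transcript, stood at 2523, 2522 and 1999 in Ler and 1647, 1848 and 1699 in gin2 without glucose, and at 17.7, 19.4 and 45.0 in Ler and 113, 148 and 138 in gin2 with it. Without glucose gin2 was slightly below Ler and not called (-0.43 ± 0.25), and with glucose it was far above (2.36 ± 0.25). Genes lowered by glucose at least 4-fold in Col-0, a set defined in other libraries of the series where 2.85% of genes passed in either direction, were counted in the same way. Of 343 tested here 82 rose (23.9%) and 65 fell (19%) without glucose (median 0.05), the share of falls close to the 17.4% of all genes. With glucose 227 rose and 17 fell (median 0.64), where 17.1% of all genes rose and 16.8% fell. Of 187 genes raised at least 4-fold in Col-0 7 rose (3.74%) and 73 fell (39%) without glucose (median -0.39), and 9 rose and 92 fell with it (median -0.45).

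**Figure D5:**
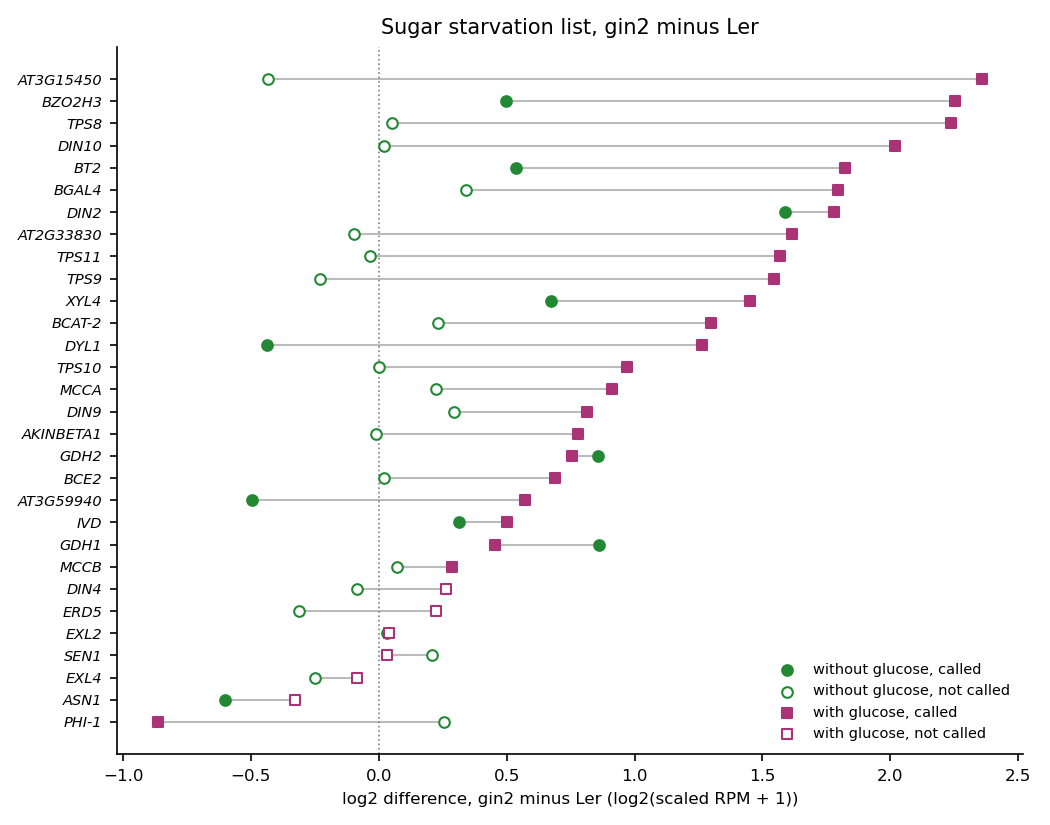
Log2 differences, gin2 minus Ler, of 30 sugar starvation genes without glucose (circles) and with glucose (squares), with filled symbols for called genes. The squares lie mostly right of 0, with 23 called higher, whereas the circles scatter around 0, with 7 called higher and 3 lower.

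Some differences were larger without glucose, and others changed direction between the sugar states. MTP11, a manganese transporter of the Golgi, stood at 12.1, 12.3 and 9.54 in Ler and 40.0, 42.0 and 49.7 in gin2 without glucose, and at 11.3, 9.46 and 7.49 in Ler and 8.18, 9.52 and 7.70 in gin2 with it. It was thus wholly higher in gin2 without glucose (1.87 ± 0.15, adjusted p = 2.43e-06), and overlapped with glucose (-0.12 ± 0.15), an interaction of 1.99 ± 0.21 (adjusted p = 0.00012). UGT75B1, a glucosyltransferase, had log2 differences of 1.78 ± 0.17 without and 0.63 ± 0.17 with glucose, from 4.18, 2.23 and 3.18 in Ler and 12.4, 13.1 and 14.1 in gin2 in the first case. SUC2 and RNR2A fell without glucose and had log2 differences of 0.22 ± 0.18 and 0.18 ± 0.12 with it. XTH18 rose without glucose and was lower in gin2 with it (-0.73 ± 0.25), and BMY3 fell without and rose with glucose (0.85 ± 0.12).

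Other differences appeared on glucose. GPT2, the glucose phosphate translocator of plastids, stood at 1.99, 2.46 and 2.58 in Ler and 2.43, 0.939 and 1.48 in gin2 without glucose, overlapping and not called (-0.39 ± 0.19). Leaving out gin2 library 1 gave a call at -0.60 (adjusted p = 0.0264). With glucose it stood at 68.1, 69.2 and 79.6 in Ler and 4.90, 3.003 and 3.48 in gin2, wholly lower in gin2 (-3.95 ± 0.19, adjusted p = 2.08e-08). AT2G29670 was higher in gin2 without glucose, at 7.30, 6.22 and 6.85 in Ler and 11.7, 9.45 and 13.3 in gin2 (0.67 ± 0.14), and lower with it, at 24.9, 22.0 and 21.3 in Ler and 10.1, 9.69 and 7.65 in gin2 (-1.23 ± 0.14). The groups were apart in both sugar states, in opposite order, and the rise without glucose was not called against Ler library 1 alone.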

How the data were processed

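Whole-seedling RNA was sequenced. The submitters' processing notes name TopHat and HTSeq, a read aligner and a counter of reads per gene. Not given in the sources used here are their versions, the build, whether strand was used and how reads matching several genes were treated. The deposited values are RPM (reads per 1e+06), as the authors named the table, and lie on steps of whole reads. In the Ler columns these sum to less than 1e+06, and so do the gin2 columns over the tested genes. Sums of the full gin2 columns are not given here. No organelle genes are listed in the Ler and gin2 columns, and 1033 genes listed for gin2 and not for Ler were left out. Also left out were 17 codes with a Ler suffix. Symbols and descriptions came from a RefSeq annotation (assembly TAIR10.1).

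Genes with values in all 12 Ler and gin2 libraries and at least 1 RPM in at least 3 were kept (17352). RPM were scaled by median of ratios and taken as log2(scaled RPM + 1). A single fit over the 4 groups of 3 libraries was made with limma 3.58.1 under R 4.3.3, its variance following a trend with level, and was tested on simulated data. The genotype differences without and with glucose and their interaction were contrasts of it. A set raised or lowered by glucose came from a like fit of the Col-0 libraries. P-values measure the spread between these libraries. Counting alternatives used whole reads recovered from the RPM steps (tolerance 0.02 reads) with edgeR 4.0.16 and DESeq2 1.42.0. Levels rest on 5637934 to 13596490 reads on tested genes per library, so genes of a few RPM rest on few reads.

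The members and the 34 gene lists were chosen with earlier results of these data known. Named genes were taken from the hexokinases, the 4 largest called members of each list, the 15 largest rises and falls without overlap and at least 5 scaled RPM, the 5 most abundant called genes in each direction, the 10 genes on each side of HXK1 and the 5 largest interactions in each direction. List members named beside these were picked after their values were seen. Nuclear copies of mitochondrial genes are tested genes with at least 90% of their 31-base words in the mitochondrial genome of that assembly. Equal replicate numbers did not pair the libraries: residual correlations were -0.367, 0.197 and 0.00707 without glucose.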

Additional observations from a re-analysis of the deposited data

Results flagged for a closer look

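The genotype effect differed between the sugar states, by the limma interaction with adjusted p below 0.05, for 16 of the named genes. Genes with the largest interactions in each direction were named for that reason, so the count of 16 was partly fixed by selection. That count therefore cannot be compared with the 1.94% of all genes whose interaction was called. Each value is the log2 difference without glucose minus that with glucose.

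The effect was higher without glucose for GPT2 by 3.56 (adjusted p = 2.13e-05), AT3G15650, a hydrolase, by 2.16 (0.000182) and MTP11 by 1.99 (0.00012). It was also higher for XTH18 by 1.95 (0.00857), AT2G29670 by 1.90 (0.00012), UGT75B1 by 1.15 (0.0244) and EXPA5 by 0.86 (0.0361). In GPT2 and EXPA5 gin2 lay less far below Ler without glucose. AT3G15650 had log2 differences of 0.04 without glucose and -2.12 with it.

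The effect was lower without glucose for the other 9. The value was -2.79 for AT3G15450 (adjusted p = 0.000459), -2.52 for the aldolase gene FBA5 (8.12e-05), -2.44 for the thioredoxin gene ACHT5 (0.000173) and -2.39 for AT1G23390 (2.13e-05). It was -2.32 for AT5G19120 (0.00011), -1.46 for BMY3 (0.000331), -1.10 for SUC2 (0.0412), -0.79 for RNR2A (0.0276) and -0.78 for XYL4 (0.0223).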

How the results depend on the processing

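HXK1 was called lower in every alternative run, and its log2 difference without each library in turn ranged from -1.82 to -1.64. The count of 5603 genes called without glucose lay within 1.5 times under TMM scaling (5597), a pseudocount of 0.25 (5560) and a 5 RPM filter (5363). It also did in a fit of the 6 libraries alone (3919) and with array weights (6022), edgeR (5393) and DESeq2 (5446). The 1 RPM filter removed no gene with values in all 12 libraries, so the run without it repeats the main run (5603). RPM as deposited called 8941 without glucose, 10185 with it and 51 in the interaction. Requiring 2-fold left 502, 664 and 177. Array weights called 8983 with glucose and 633 in the interaction. Leaving out each library in turn gave 3652 to 6208 calls without glucose, 4164 to 6531 with it and 191 to 457 in the interaction (191 without gin2 library 2 or 3 with glucose, 207 without gin2 library 2 without glucose).

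After the libraries' seed and ribosomal RNA had been seen, Ler libraries 2 and 3 without glucose were left out, which left 1884 calls. Its lone Ler library is assumed to vary like the other groups. With both Ler libraries numbered 3 left out the counts were 6254, 6505 and 503. A replicate block gave 5836, 6202 and 346, and the numbers do not pair the libraries. The interaction needs all 4 groups, so it has no fit of the compared groups alone.

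Of 71 named genes refitted under 24 alternatives each, 35 kept their side of the threshold throughout, 29 lost a call, 6 gained one and 4 changed sign in at least 1. The changes of sign were BMY3 (0.0094), FBA5 (0.17) and AT1G23390 (0.049) on RPM as deposited and RAB18 (0.22) with Ler libraries 2 and 3 left out. On RPM as deposited, where all libraries were kept, the median of all genes lay at 0.555, against 0.004 in the main run. The cause of the changes was not tested.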
